A study of Mus musculus with 12 samples.

Results

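The *Fragilis* family and the genes of primordial germ cell specification were examined as 9 genes, *Ifitm1*, *Ifitm2*, *Ifitm3*, *Ifitm6*, *Prdm1*, *Prdm14*, *Tfap2c*, *Nanos3* and *Pou5f1*. They were chosen by name, as the rows of the count table whose RefSeq accession belongs to one of these symbols. They hold 15 of the 41388 listed transcripts and are 9 of 24813 genes with a symbol. RNA-seq was performed on mouse female germline stem cells (FGSCs), which were isolated from ovaries with beads carrying an antibody to MVH and grown on STO cells, an inactivated mouse fibroblast feeder layer. Groups of 3 libraries came from a *Stella*-knockout line (KO) made with CRISPR sgRNAs delivered by lentivirus, its control (KO-con), a line overexpressing *Stella* from a lentiviral vector under puromycin selection (Over), and its control with the empty vector (Over-con). The KO line was 1 clone, and an effect of losing *Stella* cannot be told apart from one of picking that clone. The sources do not say whether the 3 libraries of a group came from separate cultures, so p-values measure the spread between these libraries, which may be technical.

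Primordial germ cells arise in the early embryo, where BMP ligands and WNT3 act on epiblast cells. *Prdm1*, which encodes the transcriptional repressor BLIMP1, *Prdm14* and *Tfap2c* are the transcription factors that set up the germ cell program, *Nanos3* encodes an RNA-binding protein that keeps the new cells alive, and *Pou5f1* encodes the pluripotency factor OCT4. *Ifitm3* is the gene known as *Fragilis*, a classical marker of cells that are competent to become germ cells. It belongs to the interferon-induced transmembrane family, small membrane proteins that are also made widely outside the germ line, fibroblasts and immune cells included, and that restrict the entry of viruses. *Stella* (listed as *Dppa3*) is switched on after *Fragilis* in the same cells.

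The Ifitm members lie together on chromosome 7. In mm9, *Ifitm2* covers chr7:148140736-148141882, *Ifitm1* chr7:148153120-148155724, *Ifitm3* chr7:148195485-148196669 and *Ifitm6* chr7:148201711-148202791. With *Ifitm5* they are the 5 annotated genes of a span of 67930 bases, and all but *Ifitm1* are read from the minus strand. *Prdm1* lies at chr10:44156983-44248307 on the minus strand, and *Prdm14*, *Tfap2c*, *Nanos3* and *Pou5f1* lie on chromosomes 1, 2, 8 and 17.

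The study characterized its FGSCs by RT-PCR, with primers named for *Fragilis*, *Oct4* and *Blimp-1*. They are shown because they tell which members such a product could come from. Sequences are written 5′ to 3′ along the primer, and capitals mark bases of a genomic site that differ from the primer or that the primer lacks.
Fragilis forward primer: atgtggtctggtccctgtt
Ifitm7 site of the forward primer: atgtggtctggtcTctgtt
Fragilis reverse primer: cggaagtcgaatcctcta
Ifitm3 site of the reverse primer: cggaagtcGgaatcctcta
Oct4 forward primer: caccatctgtcgcttcgagg
Oct4 reverse primer: agggtctccgatttgcatatct
Blimp-1 forward primer: cggaaagcaacccaaagcaatac
Blimp-1 reverse primer: cctcggaaccataggaaacattc

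The *Oct4* pair matched transcripts of *Pou5f1* alone, with a product of 132 bases, and the *Blimp-1* pair those of *Prdm1* alone, with a product of 483 bases. The *Fragilis* forward primer matched *Ifitm1*, *Ifitm2* and *Ifitm3* exactly and had 9 exact places in mm9. In *Ifitm3* it lies in exon 1 at chr7:148196357-148196375. The *Fragilis* reverse primer, as listed, had 0 exact matches in mm9. Its closest site among the Ifitm transcripts was in exon 2 of *Ifitm3*, at chr7:148195605-148195623, with 1 base more than the primer, and a product between these sites would hold 264 bases. The closest sites in *Ifitm1*, *Ifitm2*, *Ifitm6* and *Ifitm7* needed between 5 and 7 edits.

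The transcripts of the family also share sequence. Of the 30-base stretches of the *Ifitm2* transcript, 56.1% also occur elsewhere in mm9, many of them in annotated copies such as *Gm11951* and *Gm5331*. The share was 22.2% for *Ifitm3*, 27.7% for *Ifitm1* and 0 for *Ifitm6*, and *Ifitm2* and *Ifitm3* share 40 stretches with each other. How reads that align to several places were counted is not given in the sources used here, so the split of counts between *Ifitm2*, *Ifitm3* and their copies is uncertain.

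Library totals ran from 5611846 to 12866545 counts. Levels are given in CPM, counts divided by the library total after TMM normalization, which corrects those totals for composition, and set to a common scale. The floor used here, 3 counts, equals 0.23 to 0.528 CPM in a library, and lower values are not told apart from 0. This floor covers counting error only. *Stella*, listed as *Dppa3*, had 0 counts in each of the 9 KO-con, KO and Over-con libraries and 347, 371 and 285 in the Over libraries, so the counts check the label of Over but not that of KO. Of the 14 germ cell markers 2 were at 0 in all 12 libraries, *Ddx4*, which encodes MVH, and *Figla*, and *Dazl* had 1 count. The summed level of the 13 germ cell markers other than *Stella* was 2.36 to 4.97 CPM. In contrast, 15 fibroblast markers summed to between 1300 and 2280 CPM, 10 leukocyte markers to between 1440 and 1770 CPM, with *Laptm5* the highest at 105326 counts in all, and 12 mast cell markers, mostly *Cpa3*, to between 446 and 1310 CPM.

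A property of the count table bears on the members. Genes with 2 or more listed transcripts took 3.63% of all counts, although they are 7876 of the genes. Of protein-coding genes with 1 listed transcript, 32.1% had 3 or fewer counts in all, and of those with 2 or more, 42.7%. *Gapdh*, with 2 transcripts, had 23 counts in the 12 libraries together, whereas *Actb*, with 1, had 819865. *Ifitm1* (4 transcripts), *Tfap2c* (2), *Nanos3* (2) and *Pou5f1* (2) are in that class, as are *Ddx4* and *Dazl*, and their low counts cannot be read as a low level of the RNA.

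Of the 9 members, *Ifitm2* and *Ifitm3* were abundant, *Ifitm6* was low, *Prdm1* was near the floor and the other 5 were at or close to 0 (plot of counts by number of listed transcripts). Per kilobase of annotated exon, the mean level over the 12 libraries was 287 CPM for *Ifitm2*, 183 CPM for *Ifitm3*, 7.36 CPM for *Ifitm6* and 0.161 CPM for *Prdm1*. Of 5810 protein-coding genes with 1 transcript and a mean of at least 1 CPM, 97.6% had a lower level per kilobase than *Ifitm2*, 95.8% a lower one than *Ifitm3* and 32.7% a lower one than *Ifitm6*. *Prdm1*, with a mean of 0.882 CPM, lies below the minimum of this set and was not ranked in it.

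**Figure D1:**
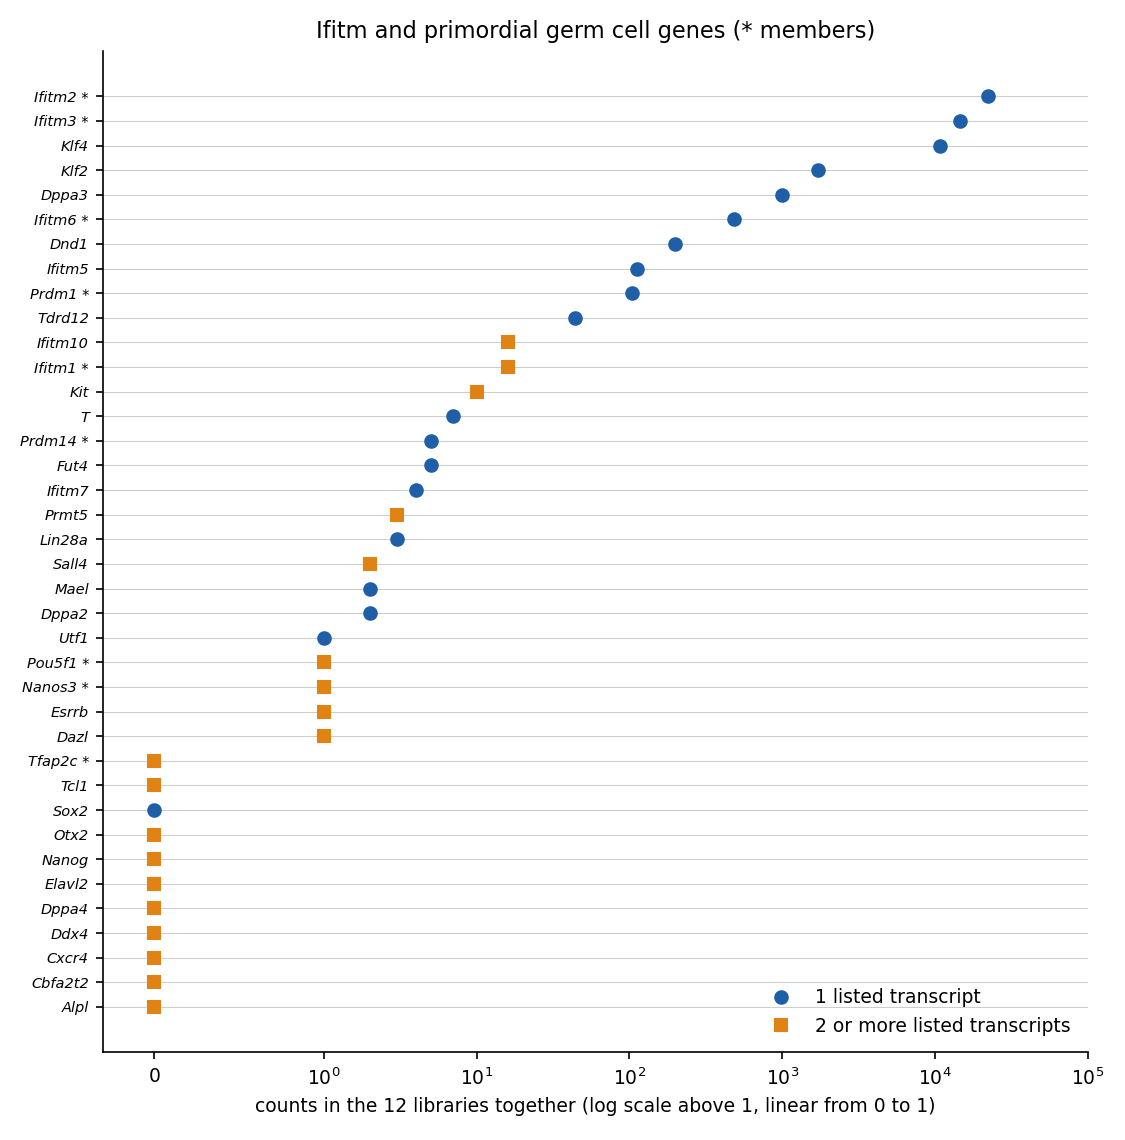
Counts in the 12 libraries together (x axis, log scale above 1 count and linear from 0 to 1) of the 9 members, the other Ifitm genes and 26 other primordial germ cell genes (y axis, members starred), as circles for genes with 1 listed transcript and squares for genes with 2 or more. The squares all lie at 16 counts or fewer, while circles run from 0 to 22317.

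The members at or near 0 had these counts. *Ifitm1* had 16 counts in the 12 libraries, 15 of them on the transcript NM_026820, and at most 5 in a library. *Prdm14*, which has a single listed transcript and so is not in the class above, had 5 counts in all and at most 2 in a library, which is within the 3 counts that a library with none allows. *Nanos3* had 1 count, in a KO-con library, *Pou5f1* 1 count, in an Over-con library, and *Tfap2c* 0. None of these 5 passed the filter on low counts in any comparison, and no difference between groups was tested for them.

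*Ifitm2*, whose protein is a close relative of FRAGILIS, was lower in KO than in its control. Its level was 193, 180.2 and 192.9 CPM in KO-con, 133.2, 161.5 and 164.7 CPM in KO, 213.2, 184.8 and 219.9 CPM in Over-con, and 205.6, 200.5 and 190 CPM in Over. Each of the 3 KO libraries lay below all 9 others, and the other groups overlapped. The group means were, from lowest to highest, 153.1 ± 17.4 CPM in KO, 188.7 ± 7.38 CPM in KO-con, 198.7 ± 7.95 CPM in Over and 206 ± 18.6 CPM in Over-con (SD, n = 3).

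*Ifitm3*, the *Fragilis* gene itself, was highest in the empty-vector control and lowest in KO. Its level was 110.7, 115 and 135.9 CPM in KO-con, 76.83, 118.6 and 90.11 CPM in KO, 150.2, 150 and 164 CPM in Over-con, and 127, 131 and 115.4 CPM in Over. The Over-con libraries were the highest and overlapped with no other group, and 2 of the 3 KO libraries were the lowest. The means were 95.17 ± 21.3 CPM in KO, 120.5 ± 13.5 CPM in KO-con, 124.5 ± 8.13 CPM in Over and 154.7 ± 8.04 CPM in Over-con (SD, n = 3).

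*Ifitm6* was at 4.438 ± 0.592 CPM in KO-con, 3.9 ± 0.414 in KO, 3.587 ± 0.473 in Over-con and 4.007 ± 1.44 in Over (SD, n = 3). Its counts per library ran from 18 to 74, and all 4 groups overlapped. *Prdm1* had 19, 21 and 14 counts in KO-con, 2, 5 and 3 in KO, 7, 3 and 8 in Over-con, and 10, 4 and 8 in Over. In CPM these are 1.847 ± 0.137 in KO-con, 0.3121 ± 0.107 in KO, 0.674 ± 0.13 in Over-con and 0.6956 ± 0.339 in Over (SD, n = 3). Every KO-con library lay above the 9 others, and the KO libraries overlapped with those of Over.

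**Figure D2:**
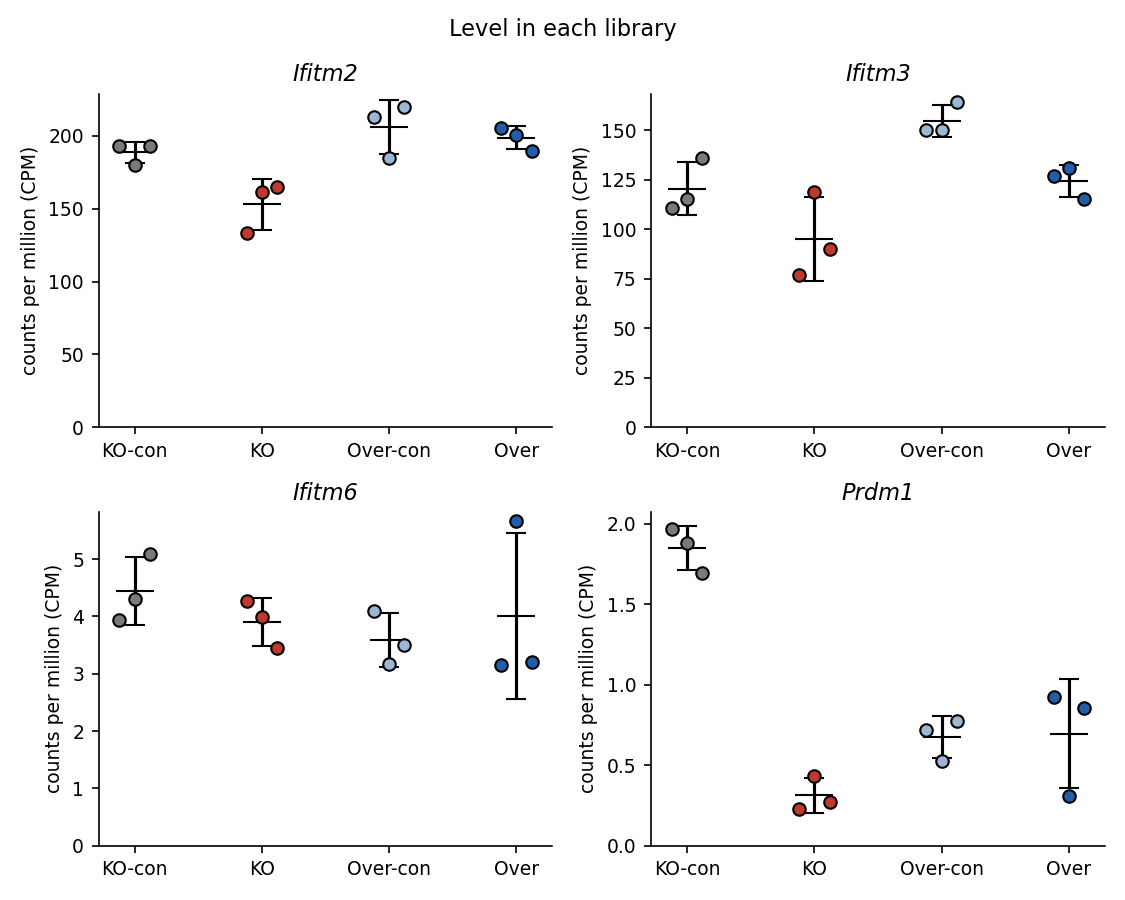
Level in CPM (y axes, from 0) of *Ifitm2*, *Ifitm3*, *Ifitm6* and *Prdm1* in each of the 3 libraries of KO-con, KO, Over-con and Over (points), with the mean and SD of the group (line and bars). For *Prdm1* the KO-con mean of 1.847 CPM is above the other groups, and for *Ifitm2* the KO mean of 153.1 CPM is below them.

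The effect of the knockout was tested as KO against KO-con, transcript by transcript, with the quasi-likelihood test of edgeR, and p-values were adjusted by Benjamini-Hochberg over all transcripts tested. A transcript was called at an adjusted p under 0.05. Of the 9 members 4 passed the filter on low counts, 0 were called higher and 2 lower, where 11.8% of the 9457 transcripts tested were called. *Prdm1* fell by 2.48 on the log2 scale (standard error 0.44, 95% interval -3.42 to -1.55, adjusted p = 0.00147), a level 5.59-fold lower, resting on 10 counts in KO and 54 in KO-con. The KO libraries had 2, 5 and 3 counts, near the floor of 3 counts, so the size of this fold is uncertain. In the 6 fits without a library the adjusted p of *Prdm1* stayed between 0.00428 and 0.0111. *Ifitm2* fell by 0.29 (standard error 0.08, interval -0.47 to -0.11, adjusted p = 0.032), a level 1.22-fold lower.

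The call of *Ifitm2* was lost when KO-con replicate 1, 2 or 3 or KO replicate 1 or 2 was left out, with adjusted p of 0.0579 to 0.129, and held without KO replicate 3 (0.0125). *Ifitm3* had a log2 fold change of -0.33 with a standard error of 0.13 (interval -0.59 to -0.06, adjusted p = 0.11), and its KO and KO-con libraries overlapped. Without KO replicate 2, the KO library with the highest *Ifitm3* level, its log2 fold change was -0.52 with an adjusted p of 0.0134. Without KO replicate 1, the lowest, it was -0.20 (adjusted p = 0.237), and without KO-con replicate 3 it was -0.23 (adjusted p = 0.362). *Ifitm6* had a log2 fold change of -0.18 (interval -0.64 to 0.29, adjusted p = 0.681).

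The effect of overexpression was tested as Over against Over-con. *Ifitm3* was the only one of the 3 members tested that was called, where 1.65% of 9401 transcripts were. It fell by 0.31 on the log2 scale (standard error 0.07, interval -0.46 to -0.16, adjusted p = 0.0396), a level 1.24-fold lower, and the 3 Over libraries lay below the 3 Over-con libraries. This call also did not hold in 5 of the 6 fits without a library, with adjusted p of 0.0669 to 0.247. It held without Over-con replicate 3 (0.015), and was lost without Over-con replicates 1 and 2 and without each Over replicate. With the replicate number as a block its adjusted p was 0.161. *Ifitm2* had a log2 fold change of -0.05 (interval -0.20 to 0.10, adjusted p = 0.833) and *Ifitm6* of 0.18 (interval -0.39 to 0.75, adjusted p = 0.833). *Prdm1* did not pass the filter here, and without a filter its log2 fold change was -0.02 with a standard error of 0.55 (adjusted p = 0.989).

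KO-con and Over-con, the control groups, were compared with each other to show how far the members differ between the controls. The sources used here do not say how KO-con was made, cloned or selected. Of 4 members tested 1 was called higher and 1 lower in KO-con, where 16.3% of 9321 transcripts were called. *Ifitm3* was lower in KO-con by a log2 fold change of -0.36 with a standard error of 0.09 (adjusted p = 0.0059), and without KO-con replicate 1 its adjusted p was 0.0702. *Prdm1* was higher in KO-con by 1.40 (standard error 0.39, adjusted p = 0.0175), a level 2.65-fold higher. That call was lost without KO-con replicate 1 (adjusted p = 0.0784), KO-con replicate 2 or Over-con replicate 2 (0.0619 each) and Over-con replicate 1 (0.0717). *Ifitm2* had a log2 fold change of -0.12 (interval -0.28 to 0.04, adjusted p = 0.327) and *Ifitm6* one of 0.29 (interval -0.20 to 0.78, adjusted p = 0.463). This comparison and that of KO with its control rest on the same KO-con libraries.

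The direction for *Ifitm3* in Over and the size of the difference for *Prdm1* therefore depended on which control was used. Against KO-con in place of Over-con, Over had a log2 fold change of 0.06 for *Ifitm3* (interval -0.09 to 0.20, adjusted p = 0.637). *Prdm1* was lower in Over than in KO-con by a log2 fold change of -1.45 with a standard error of 0.41 (adjusted p = 0.0112), where 21.5% of transcripts were called. Against Over-con in place of KO-con, KO was lower for *Ifitm2* by -0.43 (adjusted p = 0.0146) and for *Ifitm3* by -0.70 (adjusted p = 0.0031), where 7.87% of transcripts were called, and *Prdm1* did not pass the filter. The knockout comparison was thus in the same direction against both controls for *Ifitm2* and *Ifitm3*, while for *Prdm1* KO was tested against KO-con alone. *Prdm1* passed the filter only in fits that included KO-con, the group in which it was highest, so its calls rest on that group.

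KO and Over were also compared directly. *Ifitm2* was lower in KO by a log2 fold change of -0.38 with a standard error of 0.08 (adjusted p = 0.00802), the only one of 3 members called, where 10.7% of 9553 transcripts were. Without Over replicate 1 its adjusted p was 0.0566. *Ifitm3* had a log2 fold change of -0.39 (interval -0.65 to -0.12, adjusted p = 0.0635), or -0.57 without KO replicate 2 (adjusted p = 0.00329), and *Ifitm6* one of -0.07 (interval -0.63 to 0.48, adjusted p = 0.902). For *Prdm1*, which was not tested here, the fit without a filter gave -1.06 (standard error 0.67, adjusted p = 0.525).

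**Figure D3:**
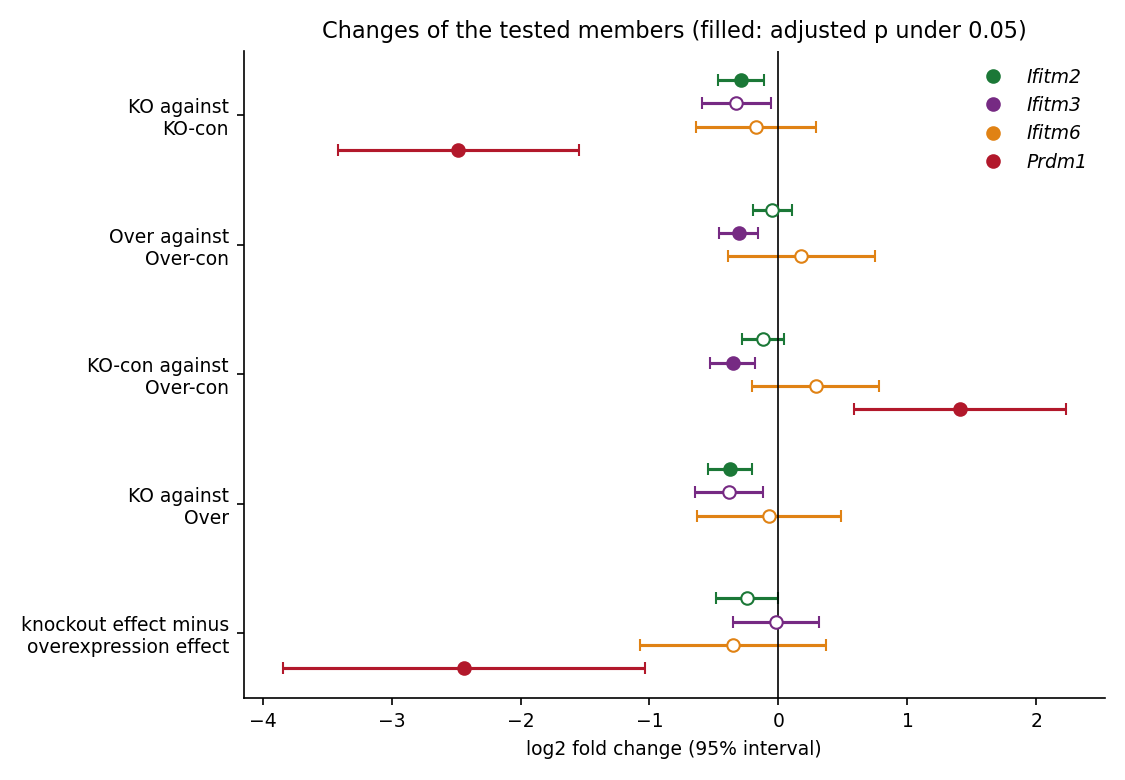
Log2 fold change (x axis) with its 95% interval of *Ifitm2*, *Ifitm3*, *Ifitm6* and *Prdm1* in 4 comparisons between groups and for the knockout effect minus the overexpression effect (y axis), filled where the adjusted p is under 0.05. *Prdm1* has the widest intervals and lies at -2.48 in KO and at 1.40 in KO-con against Over-con, while every value of the Ifitm genes lies between -0.39 and 0.29.

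A fit of all 12 libraries tested whether the knockout effect differed from the overexpression effect. It called 1 of 4 members, where 8.64% of 9903 transcripts were called. This was *Prdm1*, with a difference of -2.44 (standard error 0.67, adjusted p = 0.0274), a call that held in 4 of the 12 fits without a library. *Ifitm2* differed by -0.24 (interval -0.48 to -0.0042, adjusted p = 0.216), *Ifitm3* by -0.02 (interval -0.35 to 0.31, adjusted p = 0.963) and *Ifitm6* by -0.35 (interval -1.07 to 0.37, adjusted p = 0.613). For single genes, an exact permutation test of 3 libraries against 3 cannot give a p below 0.10.

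In bulk RNA, fewer cells of a type and less RNA per cell cannot be told apart. The summed level of the 15 fibroblast markers was 1578, 1469 and 1681 CPM in KO-con, 1589, 1844 and 1301 CPM in KO, 2063, 2224 and 2282 CPM in Over-con, and 1810, 1879 and 1800 CPM in Over. It was highest in Over-con, as were the means of *Ifitm2* and *Ifitm3*, and KO and KO-con overlapped. Within KO, replicate 2 had the highest sum and the highest *Ifitm3*. Replicate 3, with the lowest sum of 1301 CPM, had the highest *Ifitm2* of the KO libraries, at 164.7 CPM. Replicate 1, with a sum of 1589 CPM, had the lowest *Ifitm2* and *Ifitm3*. Of the 13 fibroblast transcripts tested, 0 were called higher and 2 lower in KO against KO-con, where 11.8% of all transcripts were. In KO against Over 1 was called higher and 4 lower (share of all transcripts 10.7%). In Over against Over-con 0 were called higher and 1 lower (1.65%), and in KO-con against Over-con 0 higher and 6 lower (16.3%). The 2 called lower in KO against KO-con were 1 transcript each of *Pdgfra*, at -1.56 (adjusted p = 0.00998), and *Dcn*, at -0.41 (adjusted p = 0.0224). The part of the fibroblast markers in the differences of *Ifitm2* and *Ifitm3* was not tested. Of the 15 genes *Pdgfrb* and *Sparc*, both with more than 1 listed transcript, were at 0.

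The summed level of the 10 leukocyte markers was 1438 to 1541 CPM in KO-con, 1447 to 1681 in KO, 1582 to 1768 in Over-con and 1473 to 1544 in Over. Every Over-con library lay above those of KO-con and Over, as for *Ifitm3*, and KO overlapped with each group. In KO-con against Over-con 1 of 9 leukocyte transcripts was called higher and 3 lower. Of all transcripts tested 16.3% were called there, 1.65% in Over against Over-con and 11.8% in KO against KO-con. In Over against Over-con 0 of the 9 were called by edgeR and by limma-voom and 1 by DESeq2, with 1 at an unadjusted p under 0.05, and in KO against KO-con 0 were called by any of these tools, with 2 at an unadjusted p under 0.05. *Vav1* and *Ikzf1*, both with more than 1 listed transcript, were at 0. The 10 macrophage markers, mostly *Cd68* with 4168 counts in all, summed to 37.2 to 45 CPM in KO-con, 45 to 53.1 in KO, 41.4 to 46.4 in Over-con and 51.5 to 54.5 in Over. The sum in Over lay above that in Over-con, the order opposite to that of *Ifitm3*, but the markers did not move together. Of 3 transcripts tested there, *Cd68* was called higher, at 0.51 (adjusted p = 0.00645). *Cd14*, at -0.20 (adjusted p = 0.742), and *Mpeg1*, at -0.40 (adjusted p = 0.623), had the direction of *Ifitm3* and were not called. Of the 10 macrophage markers *Adgre1*, with 3 listed transcripts, and *C1qa* and *C1qb*, with 1 each, were at 0. The part of the leukocyte and macrophage markers in the differences of the Ifitm genes was not tested. The sum of the 12 mast cell markers, mostly *Cpa3*, also moved with the groups. It was 446 to 504 CPM in KO-con, 1220 to 1310 in KO, 881 to 982 in Over-con and 740 to 769 in Over, the order opposite to that of *Prdm1* for KO and KO-con. In KO against KO-con 3 of 6 mast cell transcripts were called higher and 0 lower (share of all transcripts 11.8%). Those not called were *Il1rl1* (0.07), *Gata2* (-0.34) and *Mitf* (-0.41). In Over against Over-con 0 of 4 were called higher and 1 lower (1.65%), which was *Cpa3*. Of the 12 mast cell markers 3 were at 0 in all libraries, *Tpsab1* and *Fcer1a*, with 1 listed transcript each, and *Ms4a2*, with 4. The part of the mast cell markers in the result for *Prdm1* was not tested.

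**Figure D4:**
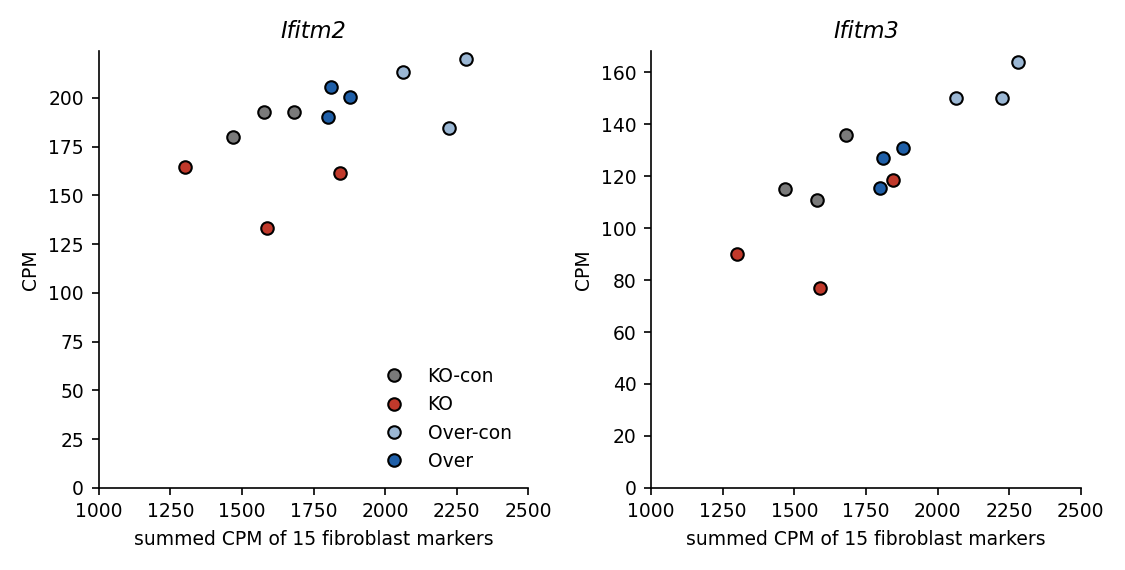
CPM of *Ifitm2* and *Ifitm3* (y axes, from 0) against the summed CPM of 15 fibroblast markers (x axes, which do not start at 0) in each of the 12 libraries, coloured by group. The 3 Over-con libraries lie at 2063 to 2282 CPM of the markers and at 150 to 164 CPM of *Ifitm3*, to the right of and above the 9 others in the *Ifitm3* panel.

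The transcripts whose level over the 12 libraries was most like that of *Ifitm3*, among 6719 with a mean of at least 5 CPM, were *Sdc1* (Pearson's r = 0.965), *Mrc2* (0.952) and *Tnfrsf1a* (0.946), which encode surface proteins. For *Ifitm2* they were *Mmp2* (0.939), which encodes a matrix protease, *Metrnl* (0.937) and *Cd14* (0.927). For *Ifitm6* they were *Mbd5* (0.808), *Sprtn* (0.804) and the noncoding transcript listed under *Atp2a2* (0.801). *Ifitm2* and *Ifitm3* had an r of 0.853 with each other, and *Ifitm2* ranked 52 among the candidates for *Ifitm3*. These are descriptions over 12 libraries that share their groups, feeder cells and normalization.

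The other Ifitm genes were low. *Ifitm5*, known from bone, had 112 counts in all, with means of 0.9405 ± 0.218 CPM in KO-con, 0.9553 ± 0.158 in KO, 0.9802 ± 0.548 in Over-con and 0.7935 ± 0.358 in Over (SD, n = 3). Against the controls its log2 fold change was 0.01 for KO (adjusted p = 0.99), and for Over it was -0.43 (adjusted p = 0.769). *Ifitm7* had 4 counts and *Ifitm10* 16 in the 12 libraries.

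Because the Ifitm genes respond to interferon, the 300-base promoter windows of RefSeq (GRCm38.p6, from 250 bases before to 50 bases after the first base) were searched on both strands for the core of the interferon-stimulated response element, GAAANNGAAA, and for the interferon-gamma type site, TTCNNNGAA. The table held 7 of the 9 members, all but *Prdm14* and *Tfap2c*. Matches were found in the genes below, in stretches of 30 bases on the gene's own strand, with matches in capitals.
Ifitm2, chr7:140955988-140956017, minus strand: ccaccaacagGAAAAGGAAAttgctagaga
Ifitm3, chr7:141010714-141010743, minus strand: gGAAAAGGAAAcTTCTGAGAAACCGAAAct
Ifitm6, chr7:141016883-141016912, minus strand: ccatatgaacTTCCTTGAAacaagagcttc

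*Ifitm2* had 1 match to GAAANNGAAA, 46 bases before its first base, and *Ifitm3* had 2, starting 2 and 19 bases after it. The first match of *Ifitm3* and the match of *Ifitm2* were the same 10 letters. *Ifitm3* also had a match to TTCNNNGAA, which overlaps the second GAAANNGAAA match, and *Ifitm6* had 1, which starts 10 bases before its first base. Of 32851 promoters in the table, 3.44% held GAAANNGAAA and 8.3% TTCNNNGAA. The octamer ATGCAAAT bound by POU factors, held by 1.74% of promoters, was not in the windows of the members.

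Interferon signaling and response was followed with a list of 36 genes. In KO against KO-con, 25 transcripts were tested, of which 1 was called higher, 4 lower and 20 not called. Of all transcripts tested 11.8% were called. The median log2 fold change of the list was -0.15, against 0.0067 over all transcripts tested. *Rsad2*, which encodes the antiviral protein viperin, was at 5.482, 5.37 and 6.785 CPM in KO-con and 1.958, 1.128 and 1.27 CPM in KO. It fell by 2.03 on the log2 scale (standard error 0.27, adjusted p = 0.000137). The KO libraries also lay below all Over-con and Over libraries, and against Over-con the log2 fold change was -2.06 (adjusted p = 0.00087).

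*Cxcl10*, an interferon-induced chemokine, was at 16.45, 22.55 and 28.35 CPM in KO-con and 6.566, 5.724 and 5.989 CPM in KO, and fell by 1.87 (standard error 0.19, adjusted p = 8.35e-06). Over-con, at 7.293 ± 1.63 CPM, and Over, at 7.405 ± 1.31 CPM, were near KO, so that KO-con was the group apart, and against Over-con the log2 fold change of KO was -0.23 (adjusted p = 0.622). *Ifngr2*, a subunit of the interferon-gamma receptor, fell by 0.30 (adjusted p = 0.0147) and *Ifit1*, an interferon-induced RNA-binding protein, by 0.37 (adjusted p = 0.0289). *Psmb9*, an immunoproteasome subunit named here after its values were seen, rose by 0.42 (adjusted p = 0.0442). The calls of *Ifngr2*, *Ifit1* and *Psmb9* were lost in 3, 5 and 5 of the 6 fits without a library, with adjusted p of up to 0.0959, 0.134 and 0.206. For *Ifngr2* these were the fits without KO-con replicates 1 and 3 and KO replicate 2, and for *Ifit1* and *Psmb9* those without each KO-con replicate and KO replicates 2 and 3. None of these 3 genes was called with Over-con in place of KO-con. KO then had a log2 fold change of 0.02 for *Ifngr2* (adjusted p = 0.945), and the direction turned for *Ifit1*, at 0.37 (adjusted p = 0.209), and for *Psmb9*, at -0.33 (adjusted p = 0.255). In Over against Over-con 0 of 26 transcripts of the list were called by edgeR, DESeq2 or limma-voom. By edgeR 1.65% of all transcripts tested were called. Of the 26 transcripts 5 had an unadjusted p under 0.05, and the median of the 26 was -0.089. In KO-con against Over-con 3 of 26 were called higher and 3 lower by edgeR, where 16.3% of all transcripts tested were called. Among them were *Cxcl10* at 1.66 (adjusted p = 3.43e-06), *Ifit1* at 0.76 (0.000338), *Psmb9* at -0.74 (0.0012) and *Ifngr2* at 0.34 (0.00421). Each was opposite in direction to its change in KO, which rests on the same KO-con libraries. *Rsad2* was at -0.02 (0.963).

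Upstream of the members, 10 transcripts of a list of 20 BMP and WNT signaling genes were tested in KO against KO-con. Of these, 0 were called higher and 2 lower by edgeR, where 11.8% of all transcripts tested were called. By DESeq2 and by limma-voom 3 of the 10 were called. The median log2 fold change of the 10 was -0.25. *Wnt3*, the ligand that makes the epiblast competent for germ cell fate, was at 5.689, 4.744 and 5.331 CPM in KO-con, 0.576, 0.8673 and 2.541 in KO, 1.435, 1.584 and 1.456 in Over-con, and 3.886, 2.374 and 2.78 in Over. KO-con was again the highest group and overlapped with no other. *Wnt3* fell by 1.92 in KO (standard error 0.36, adjusted p = 0.00233). In Over its log2 fold change was 1.02 (interval 0.37 to 1.67, adjusted p = 0.123), and against Over-con that of KO was -0.12 (adjusted p = 0.942).

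*Id2*, a classical target of BMP signaling, was at 333.4 ± 26.7 CPM in KO-con, 184 ± 4.83 in KO, 211.3 ± 15.7 in Over-con and 204.7 ± 7.76 in Over (SD, n = 3). It fell by 0.85 in KO (standard error 0.07, adjusted p = 1.34e-06). Against Over-con the log2 fold change of KO was -0.20 (adjusted p = 0.185). *Id3*, of the same family, had a log2 fold change of -0.70 in KO (adjusted p = 0.0532). In KO-con against Over-con, 4 of the 10 transcripts were called higher and 0 lower, where 16.3% of all transcripts tested were called. The 4 were *Wnt3* at 1.82 (adjusted p = 5.8e-05), *Id2* at 0.66 (3.99e-06), *Smad7*, an inhibitor of the pathway, at 0.51 (0.00496) and *Id3* at 0.54 (0.0328). The call of *Id3* was lost without KO-con replicate 1 (0.144), KO-con replicate 3 (0.139) or Over-con replicate 2 (0.121). In Over against Over-con 0 of 10 were called by edgeR, DESeq2 or limma-voom. By edgeR 1.65% of all transcripts tested were called. Of the 10 transcripts 3 had an unadjusted p under 0.05, and the median of the 10 was 0.044.

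Of 26 other primordial germ cell genes, 14 have 2 or more listed transcripts and each of those had at most 10 counts in all. Of the 12 with 1 transcript 7 had at most 10 counts, among them *Sox2* with 0, *Lin28a* with 3 and *Dppa2* with 2. In KO against KO-con 3 were tested, of which 1 was called higher and 1 lower, where 11.8% of all transcripts tested were called. *Klf4*, a pluripotency factor also made by many somatic cells, was at 87.19, 91.11 and 89.05 CPM in KO-con and 109.8, 118.7 and 132.5 CPM in KO, the highest of the 12 libraries. It rose by 0.44 (standard error 0.08, adjusted p = 0.00203), and by 0.56 against Over-con (adjusted p = 0.00299). *Klf2*, a related factor, fell by 0.56 (adjusted p = 0.0254), a call lost without each KO-con replicate and without KO replicate 2 (adjusted p of up to 0.118), and against Over-con its log2 fold change was -0.09 (adjusted p = 0.872). *Dnd1*, a germ cell RNA-binding protein, had a log2 fold change of -0.76 (adjusted p = 0.163). In Over against Over-con, where 1.65% of all transcripts tested were called, the only one of 4 called was *Dppa3*, the overexpressed gene itself.

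**Figure D5:**
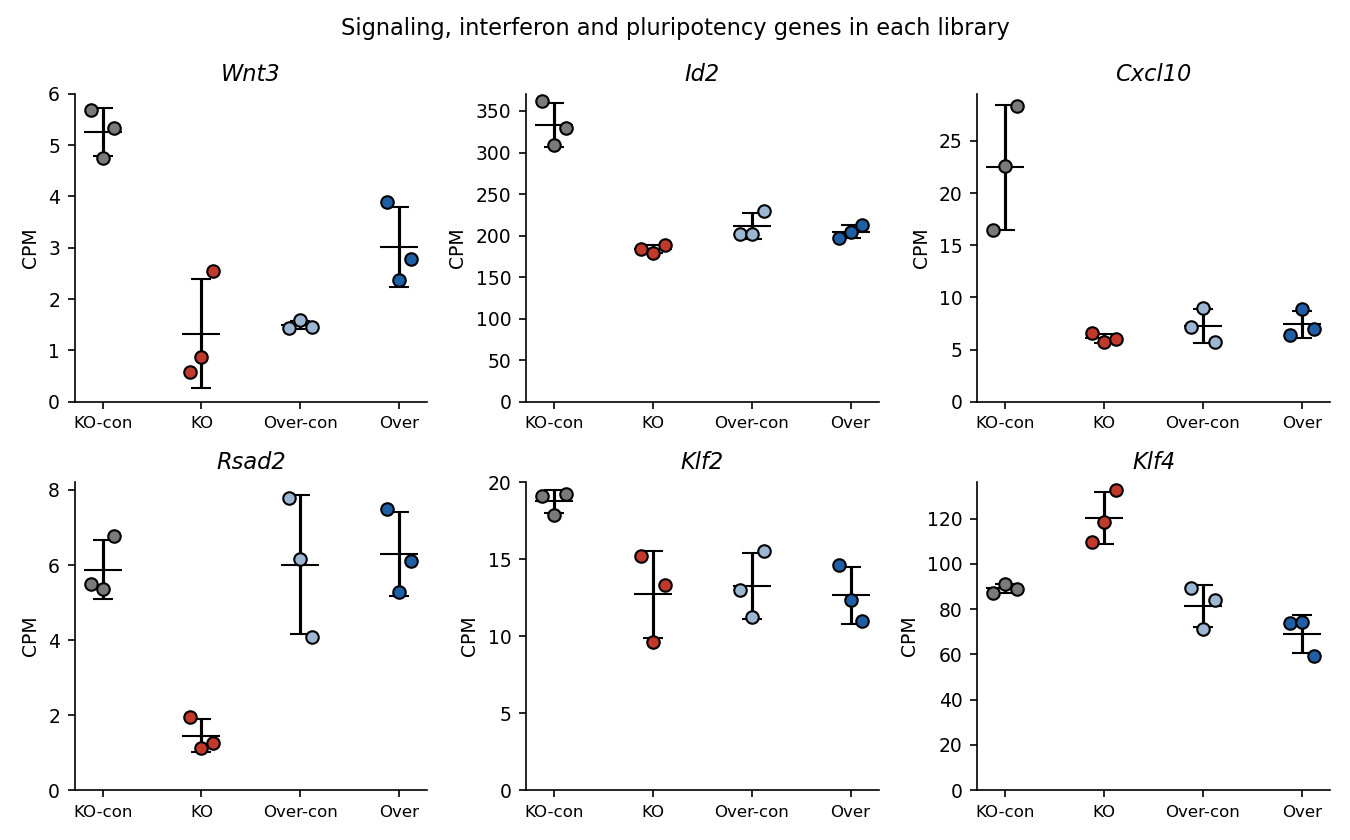
Level in CPM (y axes, from 0) of *Wnt3*, *Id2*, *Cxcl10*, *Rsad2*, *Klf2* and *Klf4* in each of the 3 libraries of KO-con, KO, Over-con and Over (points), with the mean and SD (line and bars). KO-con is highest for *Wnt3* (5.254 CPM), *Id2* (333.4 CPM), *Cxcl10* (22.45 CPM) and *Klf2* (18.77 CPM), whereas KO is apart for *Rsad2* (1.452 CPM) and *Klf4* (120.3 CPM).

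Of 26 relatives of the transcription factors and of *Nanos3*, 8 transcripts were tested in KO against KO-con and 8 in Over against Over-con. In both, 0 were called by edgeR, DESeq2 or limma-voom, with 0 and 1 at an unadjusted p under 0.05. By edgeR 11.8% and 1.65% of all transcripts tested were called in these comparisons. *Nanos1*, a family member of *Nanos3* with 1 listed transcript, was at 4.874 ± 1.15 CPM in KO-con, 3.966 ± 0.311 in KO, 9.736 ± 1.6 in Over-con and 12.6 ± 0.977 in Over (SD, n = 3). It was lower in KO-con than in Over-con by a log2 fold change of -0.96 (adjusted p = 0.00258) and lower in KO than in Over by -1.68 (adjusted p = 2.24e-05). No other transcript of the list was called there, of 7 and 8 tested. Of all transcripts tested 16.3% and 10.7% were called in these comparisons. The KO and KO-con libraries lay below all Over and Over-con libraries for *Nanos1*.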

How the data were processed

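The sample titles gave the groups and replicate numbers. The authors trimmed the reads of the stranded mRNA libraries, mapped them to mm9 by HISAT2 with its default settings, and deposited raw counts per RefSeq transcript. The strand setting, the annotation release and the handling of reads shared between transcripts or places are not given in the sources used here. Symbols for 41186 transcripts (99.5%) were matched in a RefSeq gene table (GRCm38.p6).

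Counts were tested with edgeR 4.0.16 (TMM, filterByExpr, glmQLFit, glmQLFTest, Benjamini-Hochberg over all transcripts tested) in R 4.3.3, with no covariate. CPM were normalized over the 12 libraries. Alternatives used DESeq2 1.42.0, limma 3.58.1 (voom), other scalings and filters, counts summed per gene, 1 fit of all libraries, a log2 fold change over 1, the replicate block, the other control and each library left out. Steps were tested on simulated data.

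The members and lists were chosen with earlier results of these data known. Named were all members and Ifitm genes, at most 4 called genes per list and comparison by lowest adjusted p, *Ddx4*, *Dppa3*, *Dazl*, the 3 transcripts most like each member with a mean of at least 1 CPM (log2 CPM, prior count 2) and marker genes that were highest or at 0. *Dnd1*, *Sox2*, *Lin28a* and *Dppa2*, the genes not called and the housekeeping genes *Gapdh* and *Actb* were named after their values were seen.

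Sequences were searched in NCBIM37 (mm9) with its GENCODE vM1 annotation. The same-number correlations of library deviations were -0.152 to 0.0568, so same-numbered libraries showed no clear shared variation. They cannot tell whether such libraries were prepared together.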

Additional observations from a re-analysis of the deposited data

Results flagged for a closer look

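Of the members, *Prdm1* had a knockout effect that differed from its overexpression effect by the interaction term of the fit over all 12 libraries, with a difference of -2.44 on the log2 scale (standard error 0.67) and an adjusted p of 0.0274 in edgeR's quasi-likelihood test. The call was lost in 8 of the 12 fits without a library, with adjusted p of 0.0544 to 0.109, when KO-con replicates 1 and 2, KO replicates 1 and 3, Over-con replicates 1 and 2, or Over replicates 1 and 3 were left out. *Prdm1* passed the filter only in fits that included KO-con, the group in which it was highest, so this call rests on that group. It did not pass the filter in Over against Over-con or in KO against Over-con, so its dependence on the control was not tested for KO.

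The same test marked 5 genes of the pathway lists. The difference was -0.81 for *Id2* (standard error 0.10, adjusted p = 2.55e-05), -1.95 for *Cxcl10* (0.29, adjusted p = 0.000186), -2.94 for *Wnt3* (0.51, adjusted p = 0.000787), -2.10 for *Rsad2* (0.37, adjusted p = 0.000976) and 0.68 for *Klf4* (0.14, adjusted p = 0.00299). The calls of these 5 genes held in the 12 fits without a library, with adjusted p of at most 0.015. Such fits do not show how a call depends on the control. With Over-con in place of KO-con, edgeR did not call KO for *Id2* (adjusted p = 0.185), *Cxcl10* (0.622) and *Wnt3* (0.942). It still called KO for *Rsad2* (0.00087) and *Klf4* (0.00299).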

How the results depend on the processing

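The counts of *Prdm1*, *Prdm14* and *Ifitm5* were low, and *Ifitm1*, *Tfap2c*, *Nanos3* and *Pou5f1* have 2 or more listed transcripts. Whether library depth, the listing or a low level of the RNA gave these counts was not tested. Member levels moved by less than 1 SD under other scalings and with counts summed per gene. The members called in KO against KO-con, 2 in all, became 1 with a log2 fold change over 1, with DESeq2, which gave *Prdm1* no adjusted p, or with at least 10 counts in every library. Without a filter *Ifitm3* was called too (adjusted p = 0.00632). In Over against Over-con, 1 became 0 with a log2 fold change over 1, with the replicate block or with all 12 libraries in 1 fit. With KO-con in place of Over-con 1 was called, *Prdm1* rather than *Ifitm3*. In KO-con against Over-con, 2 became 1 with a log2 fold change over 1, DESeq2 or at least 10 counts. In KO against Over, 1 became 0 with a log2 fold change over 1 and 2, with *Ifitm3*, with DESeq2, library totals, no filter, the replicate block or all 12 libraries in 1 fit. For the difference between effects, 1 became 0 with DESeq2 or at least 10 counts. Apart from the changes that a stricter threshold or filter makes by construction, the causes of these changes were not tested.

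Leaving out each library gave 1 to 2 members called in KO, 0 to 1 in Over, 0 to 2 in KO-con against Over-con, 0 to 2 in KO against Over and 0 to 1 for the difference. It gave 2 to 6 interferon genes in KO, 0 to 2 in Over (2 without Over-con replicate 3), and 1 to 2 other primordial germ cell genes in KO. The interferon genes called in KO, 5 in all, became 2 with a log2 fold change over 1 and 3 with the replicate block or all 12 libraries in 1 fit, and in Over 0 became 5 with KO-con in place of Over-con. The other primordial germ cell genes called in KO, 2 in all, became 0 with a log2 fold change over 1 and 1 with Over-con in place of KO-con. In Over, 1 became 0 with at least 10 counts and 3 with KO-con in place of Over-con. The replicate block, tried although same-numbered libraries showed no clear shared variation, changed the call of no other member in the 5 comparisons.

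The log2 fold change reversed under the other control for *Ifitm6* in KO (0.10) and for *Ifitm2* (0.08), *Ifitm3* (0.06) and *Ifitm6* (-0.10) in Over. Without a library it ran from -0.18 to 0.33 for *Ifitm6* in Over and from -0.23 to 0.29 in KO against Over, and the difference between effects from -0.23 to 0.09 for *Ifitm3* and from -0.51 to 0.01 for *Ifitm6*.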
